A study of Mus musculus with 4 samples.

Results

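This account follows 31 genes that carry glucose into the cell, break it down to pyruvate and send the pyruvate either to lactate or into the mitochondrion. They are a glucose transporter pair (Slc2a1, Slc2a3), hexokinases (Hk1, Hk2, Hk3), the enzymes of glycolysis from Gpi1 to Pkm, lactate dehydrogenases (Ldha, Ldhb), monocarboxylate transporters (Slc16a1, Slc16a3), pyruvate dehydrogenase with its kinases (Pdha1, Pdk1, Pdk2, Pdk4) and the mitochondrial pyruvate carrier (Mpc1, Mpc2). Members are a list of gene symbols whose rule uses no measured value, although the list was drawn up with earlier results of these data known, and all 31 of them were found among the 32285 genes of the matrices. Aldoa has another entry under the same symbol that held 2 UMIs in all and was left out. The study asked how a glucocorticoid (GC) acts on bone at single-cell resolution in a healing fracture callus and in intact trabecular bone. Both tissues came from 20-week-old male C57BL/6J mice 2 weeks into treatment with prednisolone at 6.25 mg/kg/d or with placebo, and no other genetic or drug difference is labelled. The labels give a slow-release pellet for every library, whereas the study's text describes daily injection in the fracture model, so the route in callus is not settled here.

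Each of the 4 groups (control callus, GC callus, control trabecular bone, GC trabecular bone) is 1 library, and the number of mice pooled in a library is not given in the sources used here. Condition, mouse, dissociation and library therefore cannot be told apart, no test was made between conditions, and every interval is a 95% interval that covers counting error only. A value is a count of unique molecular identifiers (UMIs), each standing for 1 captured RNA molecule, and levels are CPM, the gene's UMIs scaled to a fixed total of UMIs summed over a cell class. The libraries held 41239842 to 95852254 UMIs, and 6714 control and 6890 GC cells were kept from callus, with 3832 control and 4604 GC cells from trabecular bone. Members took 0.53% (control) and 0.426% (GC) of the UMIs of callus cells, and 0.579% and 0.608% of those of trabecular cells. Classes were named from marker genes, so that "chondrocyte" here means a chondrocyte-like cluster, and 17 callus and 9 trabecular classes with at least 15 cells in each library were compared. Clusters that the naming rule left without a name entered no class. In callus these included cluster 17 (73 control and 131 GC cells), led by Col1a1, Col1a2 and Ibsp. Cluster 19 (99 and 102 cells), led by Cd36, Lyz2 and Apoe, was another. Trabecular bone was nearly all marrow cells, with 6 and 10 stromal cells and no cartilage, bone-forming or osteoclast class. Between 7 and 15 called barcodes were shared by any pair of libraries.

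The callus libraries differ in ways that bear on most of what follows. The GC callus file lists only barcodes that had already been called as cells, while the cells of the other libraries were called here from all barcodes. RNA from outside the cell was also unequal. Cartilage matrix genes, which blood and marrow cells do not make, stood at 2483 to 5465 CPM in the blood, marrow, osteoclast and endothelial classes of control callus and at 482 to 2476 CPM in those of GC callus. Droplets without a cell in control callus held Slc2a1 at 403 CPM [95% interval 363–445].

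Cells take up glucose through facilitated transporters, trap it by phosphorylation and split it in the cytosol, gaining ATP without oxygen. Pyruvate kinase makes the pyruvate that lactate dehydrogenase turns into lactate for export, or that pyruvate dehydrogenase commits to oxidation unless its kinases switch it off. Cartilage has no blood vessels, and chondrocytes, like neutrophils, are known to rest heavily on glycolysis. Many of these genes are textbook targets of hypoxia-inducible factors, which bind DNA at a core written ACGTG or GCGTG, and glucocorticoids are known to induce Pdk4 in several tissues.

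Slc2a1 (10 classes), Tpi1 (7), Pgam1 (6), Pfkp (5), Pfkfb3 (4) and Slc16a3 (4) were the members with lower levels in GC in the most of 17 callus classes (1 of which is cluster 53, kept by its number), and their promoters are shown because their levels carry the comparison. The sequences are the 250 bases before the RefSeq start, 5′ to 3′ on the strand of the gene, on GRCm38.p6, the patch release of mm10. Capitals mark ACGTG or GCGTG on either strand, which on the opposite strand read CACGT or CACGC. They are, in order, Slc2a1 (chr4:119108495-119108744, plus strand), Pfkp (chr13:6648772-6649021, minus), Pfkfb3 (chr2:11502091-11502340, minus, the first of its entries), Tpi1 (chr6:124814159-124814408, minus), Pgam1 (chr19:41911621-41911870, plus) and Slc16a3 (chr11:120948817-120949066, plus).
Slc2a1: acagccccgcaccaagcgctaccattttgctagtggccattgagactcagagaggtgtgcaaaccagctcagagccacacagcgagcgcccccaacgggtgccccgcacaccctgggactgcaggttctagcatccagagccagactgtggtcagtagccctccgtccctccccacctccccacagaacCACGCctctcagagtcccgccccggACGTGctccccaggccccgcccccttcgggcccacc
Pfkp: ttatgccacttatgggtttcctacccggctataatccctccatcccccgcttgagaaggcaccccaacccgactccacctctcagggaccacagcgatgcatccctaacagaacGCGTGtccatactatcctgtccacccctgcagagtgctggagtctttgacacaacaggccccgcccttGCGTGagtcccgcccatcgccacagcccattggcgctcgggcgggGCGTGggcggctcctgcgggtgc
Pfkfb3: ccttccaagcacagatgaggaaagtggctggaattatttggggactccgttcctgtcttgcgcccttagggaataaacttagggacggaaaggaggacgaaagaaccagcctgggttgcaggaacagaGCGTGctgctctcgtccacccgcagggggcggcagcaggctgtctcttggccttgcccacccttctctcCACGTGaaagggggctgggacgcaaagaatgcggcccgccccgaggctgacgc
Tpi1: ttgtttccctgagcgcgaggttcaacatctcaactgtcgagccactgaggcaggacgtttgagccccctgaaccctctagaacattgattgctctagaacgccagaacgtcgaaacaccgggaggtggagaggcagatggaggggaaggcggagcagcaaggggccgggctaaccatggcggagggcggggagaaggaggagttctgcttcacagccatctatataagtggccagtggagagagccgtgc
Pgam1: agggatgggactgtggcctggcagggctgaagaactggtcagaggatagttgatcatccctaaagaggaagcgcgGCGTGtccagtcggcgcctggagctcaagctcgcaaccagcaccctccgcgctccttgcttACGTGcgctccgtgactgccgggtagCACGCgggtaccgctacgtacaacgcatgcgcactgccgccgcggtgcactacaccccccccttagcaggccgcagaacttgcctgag
Slc16a3: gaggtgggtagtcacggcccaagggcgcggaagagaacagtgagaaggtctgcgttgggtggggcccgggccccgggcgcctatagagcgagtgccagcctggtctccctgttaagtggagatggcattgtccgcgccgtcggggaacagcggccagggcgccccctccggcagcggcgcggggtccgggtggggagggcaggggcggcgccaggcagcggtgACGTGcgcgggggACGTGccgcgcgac

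The Pfkfb3 window holds CACGTG, which counts as ACGTG on both strands, and the Tpi1 window holds neither core. The RefSeq table had 45 promoter entries for 30 of the 31 members, and Slc2a3 had none. ACGTG lay in 16 of the 45 entries (35.6%), against 16.6% of all 32851 promoter entries, and GCGTG lay in 24 of them (53.3%), against 28.2%. At least 1 of the cores lay in 35 entries (77.8%), against 38.6% of all entries. The full palindromic glucocorticoid response element (AGAACA, any 3 bases, TGTTCT) lay in 0 member entries and in 3 of all 32851 (0.00913%). These matches describe letters in a window, and entries of 1 gene can overlap. Both cores contain CG, and the background entries were not matched for base composition. The part of base composition in these shares was not tested. The bases just after each window shown occur in a GENCODE M21 transcript of its gene, except those of Pgam1. Whether they open that transcript was not checked. The Pfkfb3 and Slc16a3 windows lie wholly within the GENCODE bounds of their genes, and the Slc2a1, Pfkp and Tpi1 windows overlap theirs.

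Levels in callus differed widely among classes. Of the 31 members, 8 were highest in osteoclasts (Aldoa, Tpi1, Pgk1, Pgam1, Eno3, Ldha, Pdha1, Mpc2), 7 in neutrophils (Slc2a3, Hk1, Hk3, Pfkfb3, Pfkfb4, Eno1, Slc16a3) and 5 in chondrocytes (Slc2a1, Hk2, Pfkl, Aldoc, Pdk1) when both callus libraries were summed. Cluster 53 of callus, with 21 control and 24 GC cells, is given by its number, since its 10 leading genes hold 5 neutrophil markers and 3 of granulocyte-monocyte progenitors. It was the highest for Gpi1 and Gapdh. Several of these leads are small. Pgk1 stood at 371 CPM in osteoclasts and at 365 CPM in chondrocytes, and Pgam1 at 484 CPM in osteoclasts and 473 CPM in cluster 53. Others are wide. Slc2a3 in neutrophils was 4.65 times the next class, Pfkm in erythroid cells 3.67 times, Slc16a1 in erythroid cells 3.62 times and Pdha1 in osteoclasts 2.23 times. Read in each library alone, the highest class was the same for 22 of the 31 members. Among the others, Hk1 was highest in chondrocytes of control callus (118 CPM, against 104 CPM in neutrophils) and in neutrophils of GC callus (177 CPM). Eno1 led in neutrophils in control (384 CPM) and in cluster 53 in GC (264 CPM, against 220.0 CPM in neutrophils). The highest class was the same for only 20 of the 31 members when each cell was thinned to 1000 UMIs.

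**Figure D1:**
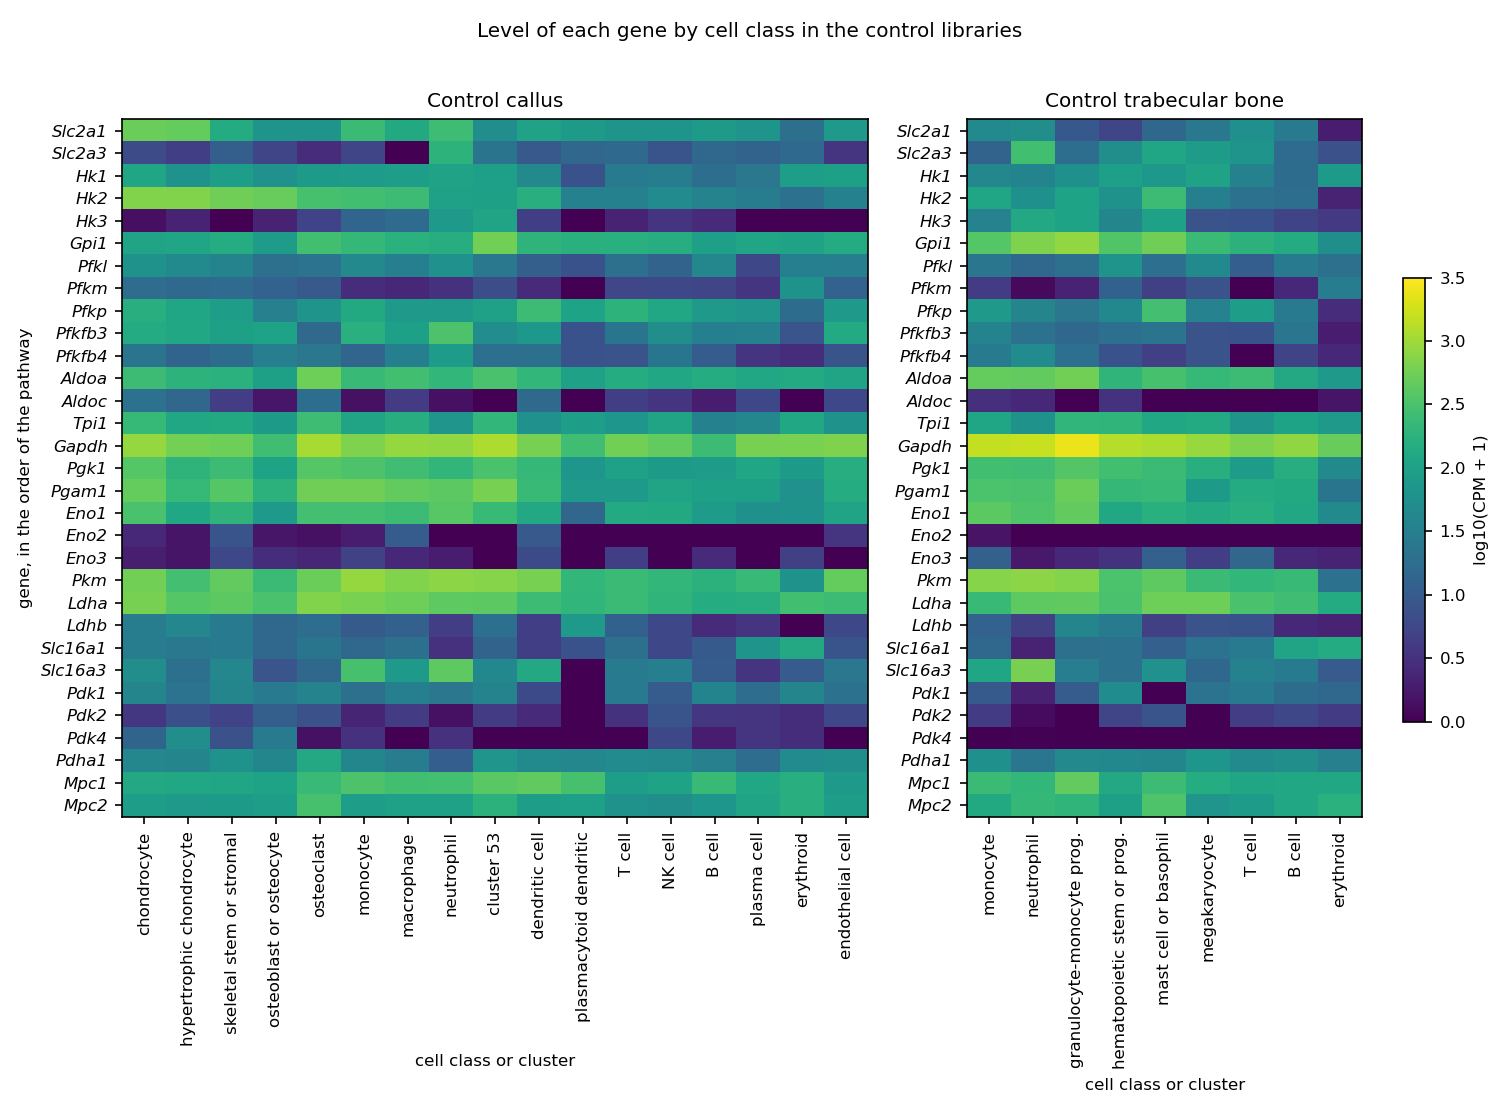
Level of each of the 31 genes (rows, in pathway order) in each cell class (columns) of the control callus library (left) and the control trabecular bone library (right), as color on a log10(CPM + 1) scale. Slc2a1 and Hk2 are bright in chondrocytes (514 and 682 CPM over both chondrocyte classes), whereas Slc2a3 is brightest in the neutrophils of both tissues (185 and 272 CPM).

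A member is counted below as higher or lower in GC where the ratio of its CPM, with 5 CPM added to each, passed 1.5-fold and the class held at least 50 of its UMIs over both libraries. The share of all measured genes past the same mark is given beside each count as the background. In callus chondrocytes of both classes together, 0 of 31 members were higher (2.16% of 13698 genes were) and 7 were lower (2.1% of genes). The 7 were Slc2a1, Pfkp, Pfkfb3, Pfkfb4, Pgam1, Eno1 and Ldhb. The chondrocyte class alone gave the same 7 genes (background 3.01% higher and 2.88% lower). In hypertrophic chondrocytes, the swollen cells of cartilage about to be replaced by bone, 0 of 27 measured members were higher (4.47% of genes) and 6 were lower (3.88%), with Hk2 in place of Pgam1 and Eno1. These names do not split the cells cleanly. Col10a1, a hypertrophic marker, was the first leading gene of clusters 6, 18 and 22 of the chondrocyte class. Clusters 6 and 18 held 372 and 203 cells, all from GC. Among genes of at least 20 CPM, where members are mostly found, 6 of 24 members were lower in all chondrocytes against 3.75% of 5232 genes. The median member stood at −0.23 on the log2 scale in all chondrocytes and the median gene at 0.03.

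Outside cartilage the counts ran from 1 to 9 lower members in the larger callus classes. In neutrophils, 2 of 23 measured members were higher (Hk1 and Hk3, background 12.5%) and 9 were lower (Slc2a1, Pfkl, Pfkp, Tpi1, Pgk1, Pgam1, Eno1, Slc16a3 and Pdk1, background 12.3%). In macrophages with monocytes, 2 of 23 were higher (the same Hk1 and Hk3, background 9.35%) and 6 were lower (Slc2a1, Pfkl, Pgam1, Eno1, Slc16a3 and Pdk1, background 8.1%). In bone-forming cells, which are the osteoblast and stromal classes together, 1 of 27 was higher (Pdk4, background 2.42%) and 3 were lower (Slc2a1, Pfkfb3 and Ldhb, background 4.04%). In osteoclasts 0 of 22 were higher (5.24%) and 1 was lower (Slc2a1, 5.22%), a share near the background. T cells had 0 of 16 higher (3.85%) and 2 lower (Slc2a1 and Tpi1, 13.3%), and B cells 0 of 17 higher (4.3%) and 2 lower (Slc2a1 and Mpc2, 17.5%), both no more than the background. The median of all genes was itself shifted by −0.17 in T cells and −0.15 in B cells.

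The larger classes of trabecular bone gave few such members. Its neutrophils had 1 of 23 higher (Pfkfb3, background 3.4%) and 1 lower (Slc16a3, 1.4%). Its monocytes, the only trabecular class of the macrophage lineage, had 0 of 22 higher (2.79%) and 1 lower (Hk1, 4.19%). Granulocyte-monocyte progenitors had 0 of 24 higher (1.91%) and 1 lower (Ldhb, 1.96%). Erythroid cells had 0 of 18 higher (0.428%) and 4 lower (Pfkl, Pfkm, Tpi1 and Slc16a1), but 53% of all genes were lower there and the median gene stood at −0.60. Hemoglobin took 586687 CPM of the GC erythroid cells and 367736 CPM of the control ones, and its part in those ratios was not tested. Among the small trabecular classes, hematopoietic stem or progenitor cells and mast cells or basophils had more on the higher side than the background. T cells and megakaryocytes were near it. Hematopoietic stem or progenitor cells (26 control and 31 GC cells) had 4 of 17 higher (Slc2a3, Hk2, Pgam1 and Pdha1, background 6.43%) and 0 lower (6.25%), with Pgam1 at 211 and 376 CPM (1.78 [1.4–2.28]) and Pdha1 at 42.3 and 85.6 CPM (2.02 [1.19–3.6]). Mast cells or basophils had 3 of 15 higher (Eno1, Ldha and Mpc2, 8.61%) and 1 lower (Tpi1, 8.04%), and T cells 2 of 15 higher (Pgk1 and Eno1, 12.1%) and 1 lower (Slc2a1, 13.2%). Megakaryocytes had 1 of 11 higher (Pgam1, 6.63%) and 0 lower (7.92%). Trabecular B cells numbered 16 in the GC library, too few for a reading of its members.

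**Figure D2:**
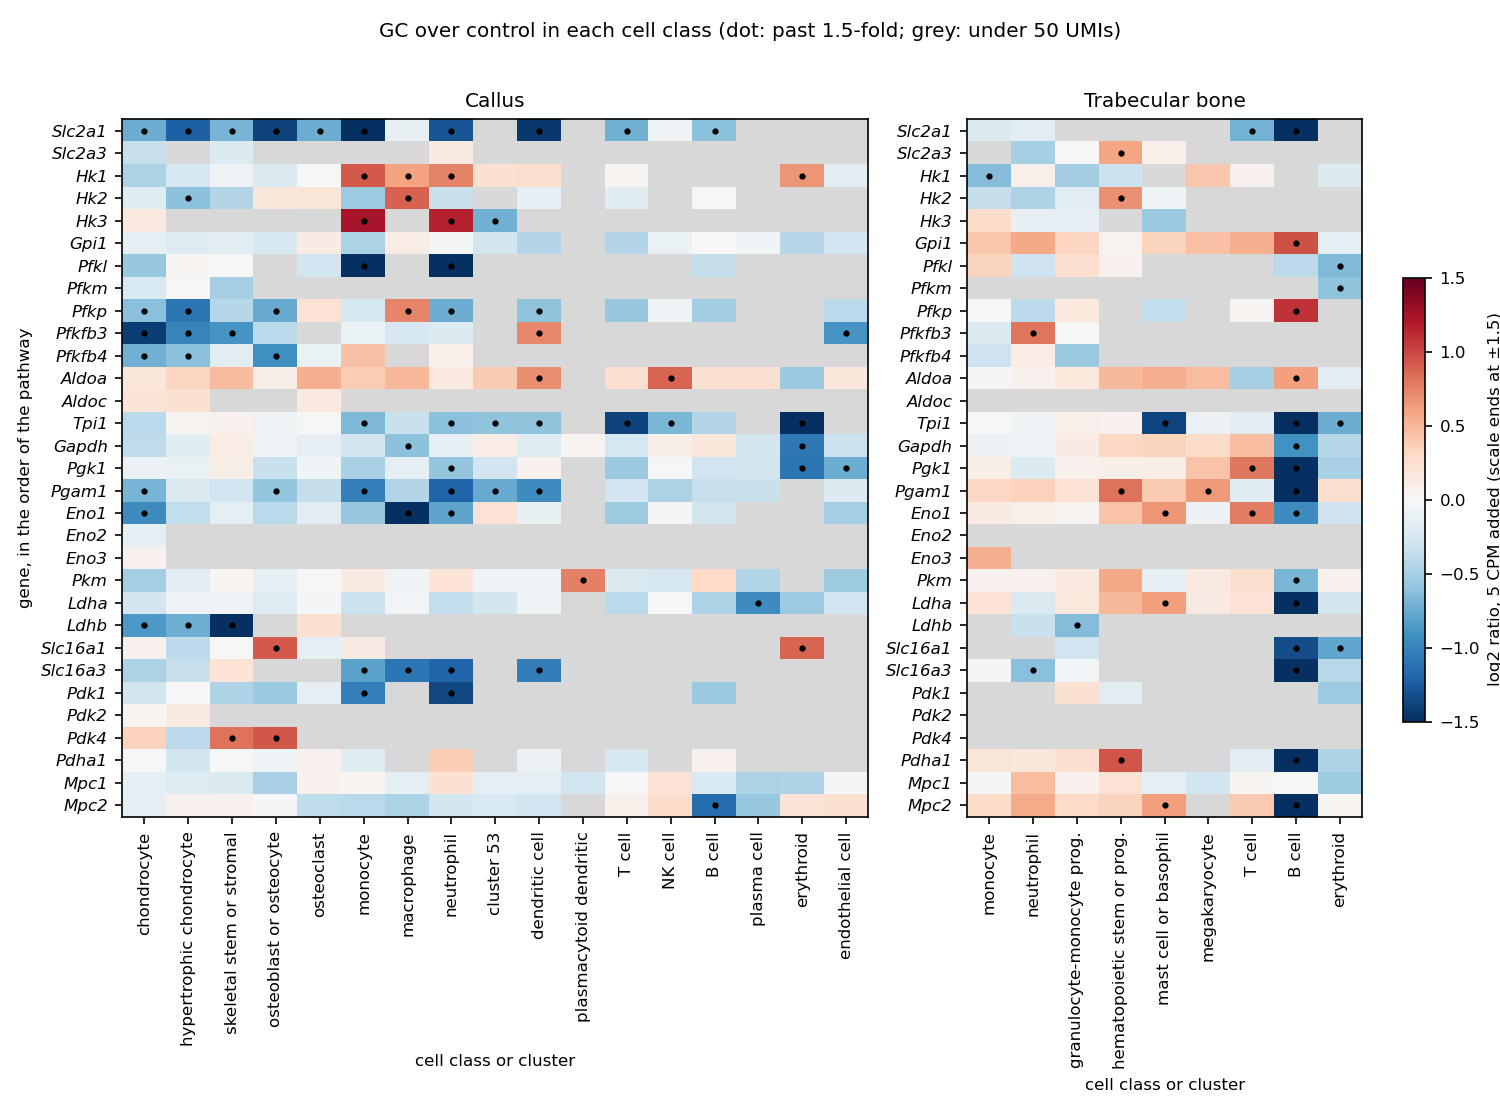
Log2 ratio of GC over control (5 CPM added, color scale ending at ±1.5) for each gene (rows) in each class of callus (left) and trabecular bone (right). Dots mark ratios past 1.5-fold and grey cells hold under 50 UMIs. The Slc2a1 row is below 0 in all 12 measured callus classes, whereas Hk1 has 4 dots on the higher side.

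Slc2a1, the basal glucose transporter of most cells, was the member with a lower level in the most callus classes. All chondrocytes held it at 514 CPM [508–519] in control and 294 CPM [288–299] in GC, a ratio of 0.572 [0.56–0.585]. Hypertrophic chondrocytes held it at 475 CPM in control and 201 CPM in GC (ratio 0.424 [0.396–0.453]). These intervals cover counting error only, and the gap in the cells named hypertrophic was the wider. Some GC clusters led by Col10a1 are counted in the chondrocyte class, so this contrast rests on the names given. Bone-forming cells, at a lower level, went from 116 CPM in control to 63.5 CPM in GC (0.55 [0.468–0.644]). Osteoblasts alone went from 64.8 to 21.6 CPM and stromal cells alone from 143 to 86.5 CPM. Cartilage matrix genes stood at 16286 CPM in control osteoblasts and 9720 CPM in GC ones, and at 27773 and 27023 CPM in stromal cells. The part of outside RNA in the osteoblast and stromal levels of Slc2a1 was not tested. Neutrophils held 261 CPM in control and 104 CPM in GC (0.396 [0.335–0.468]). Macrophages with monocytes held 221 and 89.1 CPM (0.404 [0.344–0.473]). This last difference sat in the monocytes, which held 245 CPM in control and 80.6 CPM in GC, while the macrophage class held 132 and 121 CPM (0.922 [0.649–1.3]). Over all 12 callus classes where it was measured, the log2 ratio lay between −1.55 and −0.05, and it passed 1.5-fold in 10.

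Since droplets without a cell held Slc2a1, the callus classes outside bone and cartilage were also read with an estimate of outside RNA taken off. The share of outside RNA was estimated from cartilage matrix genes (2.96–6.7% of UMIs in control classes and 0.802–4.33% in GC classes). The profile taken off was that of each whole library, not of droplets without a cell, and in GC callus it came from called barcodes alone. Slc2a1 was then still lower in monocytes (log2 −1.55), dendritic cells (−1.40) and neutrophils (−1.30). It no longer passed 1.5-fold in osteoclasts (−0.52), B cells (−0.39) and T cells (−0.37), and it stood at 0.01 in macrophages and 0.29 in NK cells. This correction was added after the data were seen. The lower-member counts went from 1 to 0 in osteoclasts and from 2 to 1 in both B and T cells, and stayed at 9 in neutrophils and 6 in macrophages with monocytes. The share of all genes past the mark after the correction is not given here.

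Slc2a1 lay lower in the neutrophils and monocytes of trabecular bone than in those of callus. Neutrophils held 52.1 CPM in control and 45.7 CPM in GC (ratio 0.878 [0.8–0.964]), and monocytes held 45.4 and 38.9 CPM (0.857 [0.609–1.2]). T cells passed the mark on the lower side at 56.5 and 32.6 CPM, but from 17 UMIs in control and 43 in GC, and the interval of that ratio (0.323–1.08) includes equality. T cells of callus held much the same levels, 62.8 and 36.1 CPM. Slc2a3, the high-affinity transporter of neurons and leukocytes, was the main form in trabecular neutrophils, where it made up 83.9% [83–84.9] of the UMIs of the pair. Slc2a3 stood there at 272 CPM in control and 191 CPM in GC (0.702 [0.673–0.733]). In callus neutrophils Slc2a3 was nearly level at 185 and 203 CPM (1.1 [0.953–1.26]), and its share of the pair was 41.4% in control and 66.2% in GC. Chondrocytes had next to none of it, with Slc2a1 at 99% of the pair.

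**Figure D3:**
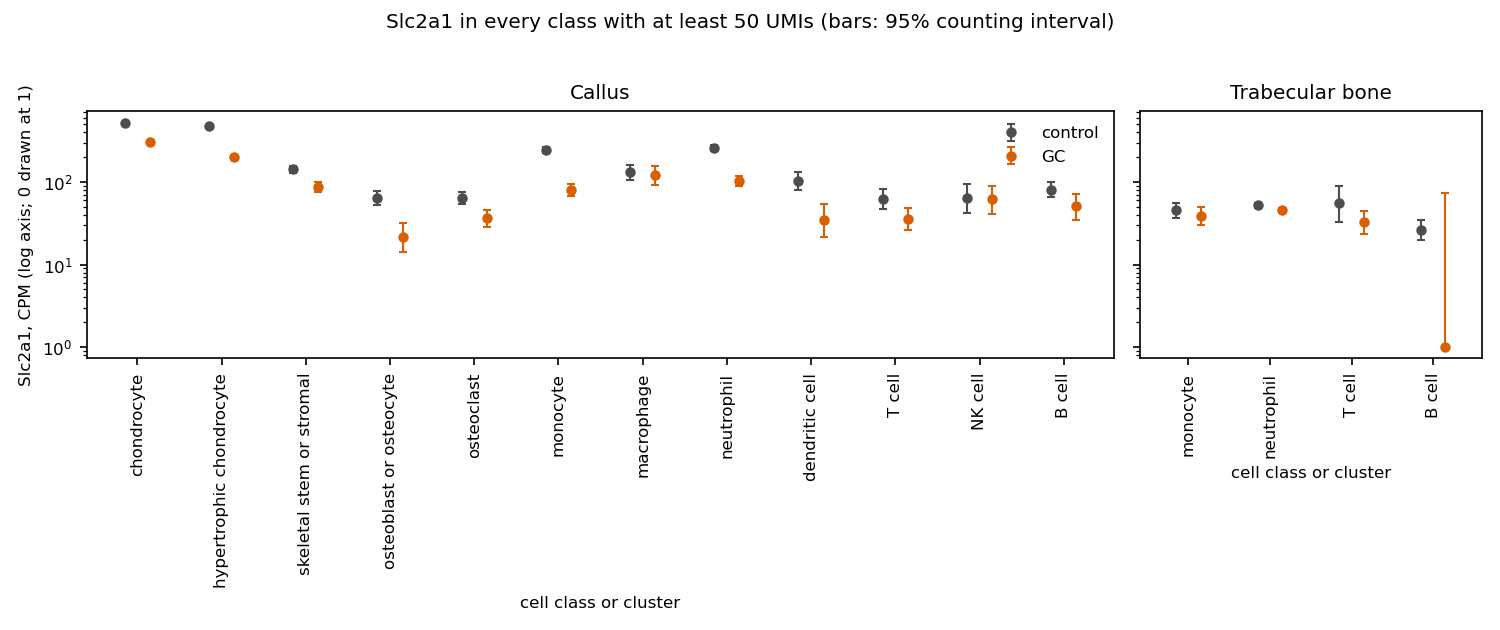
Slc2a1 in CPM (log axis, 0 drawn at 1) in each class with at least 50 UMIs, control in grey and GC in orange, with 95% counting intervals as bars, for callus (left) and trabecular bone (right). Chondrocytes are the highest class in both callus libraries (522 and 308 CPM), and the GC point is under the control point in every callus class, narrowly in macrophages and NK cells.

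The hexokinases, which trap glucose as glucose 6-phosphate, differed between cell lineages more than between conditions. Hk2, the inducible form, made up 86.2% of the hexokinase UMIs of control chondrocytes. It stood at 682 CPM in control and 579 CPM in GC in all chondrocytes (ratio 0.849 [0.835–0.863]) and at 676 and 441 CPM in hypertrophic ones (0.652 [0.621–0.683]). Without cartilage clusters over 95% from 1 library, Hk2 stood at 643 and 596 CPM (0.927 [0.911–0.945]). Within 18 cartilage clusters, Hk2 was below 0 on the log2 scale in 7 (median 0.08). It was past 1.5-fold on the higher side in 3 and on the lower side in 1. Hypertrophic clusters were filled unequally, with 151 control and 28 GC cells in cluster 23 and 46 and 110 in cluster 28. Hk1, the form found in most cells, was 95% of the hexokinase UMIs of trabecular erythroid cells, and Hk3, a form of myeloid cells, was 58.1% of those of trabecular neutrophils. Hk1 and Hk3 ran against the general direction in callus neutrophils and macrophages with monocytes. Hk1 in macrophages with monocytes stood at 83.5 CPM in control and 155 CPM in GC (1.86 [1.57–2.19]), and in neutrophils at 104 and 177 CPM (1.7 [1.44–2.02]). Hk3 stood at 13.4 and 38.3 CPM in the former (2.86 [1.94–4.28]) and at 75.9 and 175 CPM in neutrophils (2.31 [1.92–2.79]). In cluster 53 Hk3 was past the mark on the lower side instead, at 108 and 63.8 CPM from 36 and 22 UMIs (0.588 [0.33–1.03]). The share of Hk1 among hexokinase UMIs in callus macrophages with monocytes was thus 22.9% in control and 35.3% in GC, and that of Hk2 was 73.4% and 56%. Trabecular monocytes showed the other direction for Hk1, with 41.2 CPM in control and 24.5 CPM in GC (0.594 [0.394–0.882], 79 and 39 UMIs), but with every cell thinned to 1000 UMIs it stood at 33.5 and 29.9 CPM (log2 −0.14, 6 and 5 UMIs). Hk2 in the macrophage class alone was higher in GC, at 252 and 473 CPM (1.87 [1.53–2.31]).

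Gpi1, which turns glucose 6-phosphate into fructose 6-phosphate, passed 1.5-fold in 0 of the 16 callus classes where it was measured. In all chondrocytes it stood at 111 and 100.2 CPM. In trabecular bone it leaned the other way, from 666 CPM in control to 991 CPM in GC neutrophils (1.49 [1.45–1.52]), from 376 to 504 CPM in monocytes (1.34 [1.21–1.48]) and from 855 to 1066 CPM in granulocyte-monocyte progenitors (1.25 [1.18–1.31]). None of these 3 reached the 1.5-fold mark.

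The phosphofructokinases catalyze the committed step, and the Pfkfb enzymes make and remove fructose 2,6-bisphosphate, its strongest activator. Pfkp was the main phosphofructokinase of chondrocytes (66.5% of the family in control) and stood at 152 CPM in control and 94.2 CPM in GC (0.62 [0.597–0.645]). Pfkl, the liver form, was lower in myeloid cells, with 40.5 and 12.1 CPM in macrophages with monocytes (0.297 [0.19–0.452]) and 57.3 and 15 CPM in neutrophils (0.262 [0.167–0.399]). Its share of the family in macrophages with monocytes was 24.8% in control and 9.33% in GC. Pfkm, the muscle form, led in trabecular erythroid cells (58.1%) and was near 2 CPM in callus macrophages with monocytes. Pfkfb3, which favors the activator, had the lowest ratio of any member in all chondrocytes. It stood there at 137 CPM [134–139.6] in control and 50.6 CPM [48.4–52.9] in GC (0.37 [0.352–0.389]), at 119 and 56.8 CPM in hypertrophic chondrocytes and at 101 and 60.4 CPM in bone-forming cells (0.601 [0.509–0.709]). The myeloid classes with the highest Pfkfb3 showed little of this, with 337 and 291 CPM in neutrophils (0.863 [0.772–0.965]) and 148 and 136 CPM in macrophages with monocytes. Without callus neutrophil cluster 1 (1045 control and 30 GC cells), Pfkfb3 in callus neutrophils stood at 229 and 288 CPM instead (1.26 [1.08–1.48]). Within the 3 callus neutrophil clusters its log2 ratio ran from −0.05 to 0.97. Trabecular neutrophils had more of it in GC, 38.8 CPM against 20.1 CPM (1.93 [1.7–2.2]). Pfkfb4 in all chondrocytes stood at 19.4 and 10.1 CPM (0.519 [0.462–0.583]).

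Aldolase and triose phosphate isomerase split the sugar and interconvert the pieces. Aldoa leaned higher in GC across callus, with a log2 ratio below 0 in only 1 of 16 measured classes. It stood at 240.1 and 277 CPM in all chondrocytes (1.15 [1.12–1.18]), at 541 and 786 CPM in osteoclasts (1.45 [1.35–1.57]) and at 242 and 324 CPM in macrophages with monocytes (1.34 [1.2–1.48]). It passed the 1.5-fold mark in dendritic cells (206 and 336 CPM) and NK cells (119.8 and 223 CPM). Aldoc, the brain form, was 7.19% of the aldolase UMIs of control chondrocytes and 18.6 and 22.4 CPM in control and GC. Tpi1 was past the mark on the lower side in 7 of 14 callus classes, among them T cells (68.5 and 23 CPM), neutrophils (65.8 and 40.7 CPM) and monocytes (111 and 68 CPM). In the classes where Tpi1 was highest the libraries were closer, at 257 and 255 CPM in osteoclasts and 203 and 159 CPM in all chondrocytes.

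The enzymes from Gapdh to Pkm did not share 1 pattern. Gapdh, often used as a reference gene, stood at 835 and 659 CPM in all chondrocytes (0.79 [0.778–0.802]) and at 438 and 461 CPM in bone-forming cells (1.05 [0.984–1.12]). Within clusters holding at least 15 cells of each library, this contrast did not hold. Gapdh was below 0 on the log2 scale in 7 of 18 cartilage clusters (median 0.01) and in 4 of 4 bone-forming clusters (median −0.25). With cells thinned, the pooled contrast stayed, at 770 and 491 CPM in all chondrocytes and 440.3 and 579 CPM in bone-forming cells. Pgk1, the first step that makes ATP, was nearly level in chondrocytes at 342 and 327 CPM and lower in neutrophils at 203 and 133 CPM (0.657 [0.56–0.768]). Pgam1, which moves the phosphate of 3-phosphoglycerate, was below 0 on the log2 scale in all 15 callus classes where it was measured, from −1.20 to −0.21. Its level went from 425 to 273 CPM in all chondrocytes (0.643 [0.628–0.658]), from 526 to 281 CPM in macrophages with monocytes (0.534 [0.486–0.586]) and from 411 to 176 CPM in neutrophils (0.428 [0.376–0.487]). In trabecular neutrophils it was higher instead, 311 and 395 CPM (1.27 [1.23–1.31]).

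Eno1, the ubiquitous enolase, was 99.2% of the enolase UMIs of control chondrocytes and stood at 282 CPM in control and 153 CPM in GC (0.544 [0.528–0.56]). It was 384 and 220.0 CPM in neutrophils and 275 and 167 CPM in macrophages with monocytes, whereas bone-forming cells held 149 and 129 CPM and osteoclasts 285 and 254 CPM. Within clusters, Eno1 was below 0 on the log2 scale in 4 of 4 bone-forming clusters (median −0.46), past 1.5-fold in 1. In cartilage it was below 0 in 13 of 18 clusters (median −0.22), past 1.5-fold on the lower side in 3. Eno2, the neuronal form, and Eno3, the muscle form, stayed under 5 CPM in the large classes of callus except for 7.8 CPM of Eno3 in GC osteoclasts. A near-identical copy, Eno1b, held 523 UMIs in all libraries, so a small part of the Eno1 reads may be assigned between them. Pkm, which makes pyruvate, stood at 525 and 382 CPM in chondrocytes (0.728 [0.713–0.742]) and was level or slightly higher in the myeloid classes, at 844 and 914 CPM in macrophages with monocytes and 768 and 882 CPM in neutrophils.

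Ldha, which makes lactate, was past 1.5-fold in 1 of 16 callus classes (plasma cells), although 15 of the 16 lay below 0. It stood at 559 and 472 CPM in chondrocytes (0.845 [0.83–0.861]), at 676 and 663 CPM in osteoclasts and at 424 and 326 CPM in neutrophils (0.77 [0.695–0.854]). Ldhb, the form that favors pyruvate, was scarce but lower in chondrocytes and in bone-forming cells, though not in osteoclasts (16.7 and 20.5 CPM). Ldhb went from 30.6 to 14.6 CPM in all chondrocytes (0.478 [0.434–0.526]) and from 22.2 to 5.96 CPM in bone-forming cells (0.268 [0.159–0.432], 102 and 21 UMIs). It was 5.58% of lactate dehydrogenase UMIs in control bone-forming cells and 1.66% in GC ones. In stromal cells alone Ldhb held 79 UMIs in control and 8 in GC, so the bone-forming difference lay mostly there. Ldhb was not called in osteoblasts, and it was measured in only 1 of the 4 bone-forming clusters (log2 −2.17). The relative Ldhc, a testis form, held 1082 UMIs over the libraries.

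Lactate leaves cells through the monocarboxylate transporters, and the pair divided by lineage. Slc16a3, the export form of glycolytic cells, was 99.5% of the pair in control callus neutrophils, and Slc16a1 was 94% in control trabecular erythroid cells. Slc16a3 stood at 423 and 182 CPM in callus neutrophils (0.429 [0.378–0.487]) and at 253 and 143 CPM in macrophages with monocytes (0.565 [0.495–0.644]). It was also lower in trabecular neutrophils, at 604 and 389.7 CPM (0.645 [0.626–0.664]), and level in trabecular monocytes at 118 and 117 CPM. In bone-forming cells Slc16a3 stood at 29.2 and 34 CPM. Slc16a1 in erythroid cells went from 128 to 239 CPM in callus (70 and 47 UMIs) and from 143 to 81.2 CPM in trabecular bone.

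**Figure D4:**
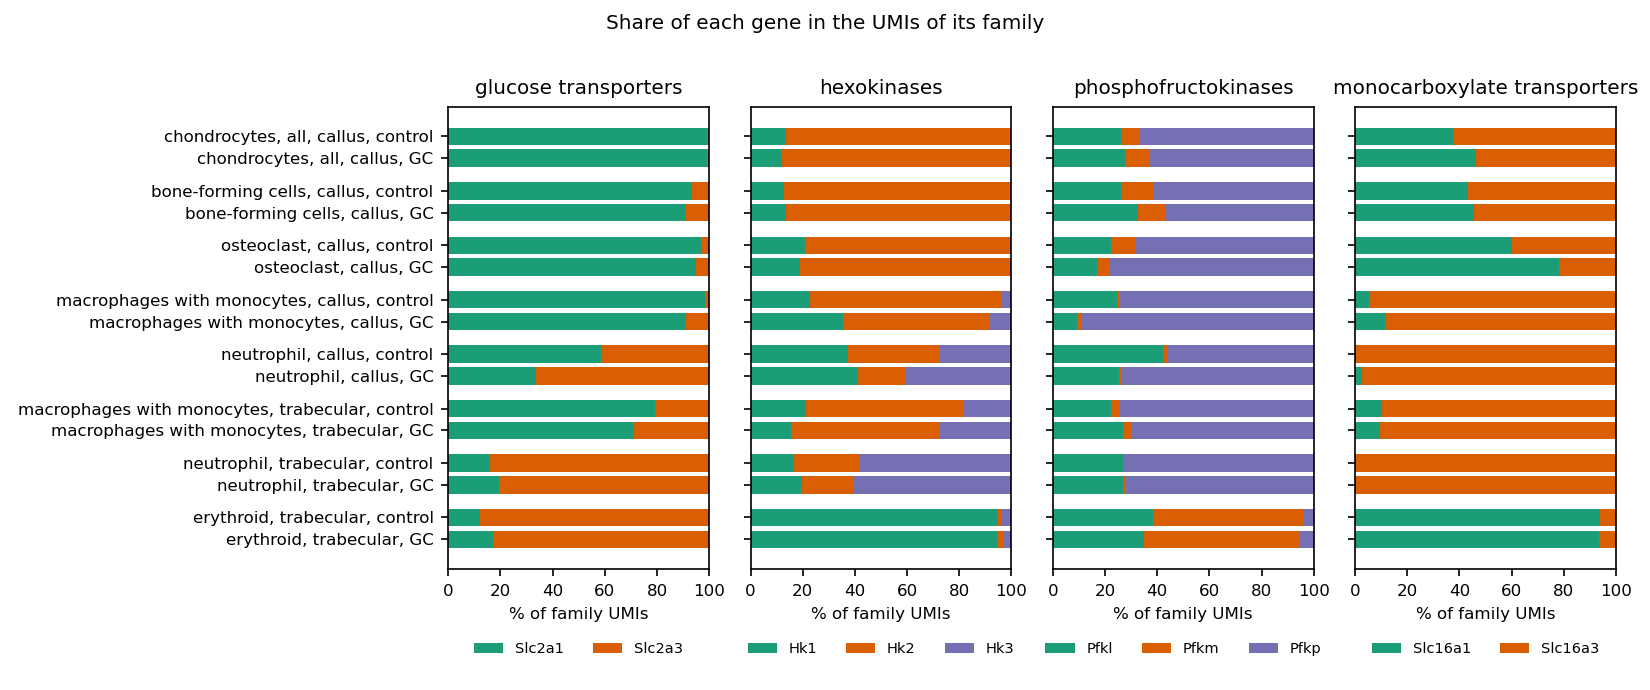
Share of each gene in the UMIs of its family (horizontal bars, % from 0 to 100) for glucose transporters, hexokinases, phosphofructokinases and monocarboxylate transporters in 8 class and tissue pairs, control above GC. Slc2a3 is 41.4% of the transporter pair in control and 66.2% in GC callus neutrophils, and Hk1 is 22.9% and 35.3% of the hexokinases in callus macrophages with monocytes.

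At the entry to the mitochondrion the data were quieter. Mpc1 and Mpc2, the subunits of the pyruvate carrier, passed 1.5-fold in 0 of 17 and 1 of 16 callus classes (Mpc2 in B cells, 67.6 and 27.7 CPM). Mpc1 stood at 127 and 113 CPM in chondrocytes and at 321 and 322 CPM in macrophages with monocytes. Both carrier genes were somewhat higher in GC trabecular neutrophils, Mpc1 at 209 and 289 CPM (1.38 [1.33–1.44]) and Mpc2 at 216 and 321 CPM (1.48 [1.43–1.55]). Pdha1, the catalytic subunit of pyruvate dehydrogenase, passed the mark in 0 of 10 callus classes and stood at 40 and 39.3 CPM in chondrocytes and at 130.3 and 137 CPM in osteoclasts, its highest class.

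The kinases that switch pyruvate dehydrogenase off did differ. Pdk1, the hypoxia-inducible kinase, was lower in macrophages with monocytes at 21.3 and 7.75 CPM (0.364 [0.203–0.623]) and in neutrophils at 23.6 and 6.13 CPM (0.26 [0.123–0.501]), from 62 and 18 UMIs in the former and 56 and 11 in the latter. It stood at 34.9 and 29.3 CPM in chondrocytes. Pdk4, the kinase induced by fasting, was higher in GC bone-forming cells at 29.5 CPM against 13.7 CPM (2.15 [1.56–2.99], 104 and 63 UMIs). The log2 ratio of 0.88 fell short of the mark with 20 CPM added (0.55), in cells of at least 1000 UMIs (0.44) and when thinned (0.29, from 4 control and 5 GC UMIs). Without those changes Pdk4 was higher in GC both in osteoblasts (27.2 and 56.1 CPM) and in stromal cells (6.38 and 14.9 CPM). The share of Pdk4 among the kinases of bone-forming cells was 25.1% in control and 48.6% in GC. In all chondrocytes Pdk4 was level at 19.6 and 20.2 CPM. Pdk2 stood at 3.28 and 3.44 CPM in chondrocytes, and in trabecular bone Pdk2 and Pdk4 were under the minimum of 50 UMIs in every class.

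The callus chondrocytes of the 2 libraries were not the same mixture of clusters, and their depths differed. A GC chondrocyte held a median of 10667 UMIs and a control one 24318 UMIs. The 7 clusters with over 95% of their cells from GC held 1355 GC cells at a median of 3054 UMIs, and 2 clusters with over 95% from control held 303 control cells at a median of 29059 UMIs. The control clusters carried the highest levels, with Slc2a1 at 946 CPM, Pfkfb3 at 304 CPM, Pgam1 at 698 CPM and Eno1 at 488 CPM, and the smaller of them, of 123 control cells, reached 1302 CPM of Slc2a1 and 1259 CPM of Hk2. The GC clusters stood at 416 CPM of Slc2a1, 50.4 CPM of Pfkfb3 and 68.8 CPM of Eno1. The largest of these, with 471 GC cells at 643 CPM of Slc2a1, lay above the pooled control level of 514 CPM, while its Eno1 was 35 CPM. Because the cells of the callus libraries were called by different routes, a cluster of shallow GC cells and the calling route cannot be told apart.

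The 20 remaining cartilage clusters held 2044 control cells (median 23552 UMIs) and 1389 GC cells (median 19920 UMIs). There 4 of 31 members were lower, against 2.03% of 13225 genes, and 0 were higher, against 1.25%. Slc2a1 stood at 439.6 and 260.4 CPM (0.592 [0.577–0.608]), Pfkfb3 at 108 and 50.3 CPM (0.467 [0.441–0.494]), Pfkfb4 at 19.1 and 9.53 CPM and Ldhb at 30.9 and 15.7 CPM (0.507 [0.456–0.563]). Those 4 ratios were close to the ones over all chondrocytes except for Pfkfb3. Pfkp (0.671), Pgam1 (0.74) and Eno1 (0.709) no longer passed 1.5-fold, Gapdh was at 0.932 and Aldoa at 1.25 [1.22–1.29].

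The direction was also read within each of the 18 clusters with at least 15 cells of each library. Slc2a1 was below 0 in 16 of 18 clusters, past 1.5-fold on the lower side in 8 and on the higher side in 1 (log2 1.02), with a median log2 ratio of −0.55. Pfkp was below 0 in 17 of 17 measured clusters, Pfkfb3 in 15 of 17, Ldhb in 13 of 14 and Eno1 in 13 of 18. Aldoa was above 0 in 16 of 18. Pdk4, level in the pool, was below 0 in 10 of 12 clusters and past 1.5-fold on the lower side in 7, with 0 past it on the higher side. Ldha was below 0 in 8 of 18 and past 1.5-fold in 0. With every cell thinned to 1000 UMIs, so that each counts equally (2348 control and 2627 GC cells), Slc2a1 stood at 515 and 393 CPM (log2 −0.39), short of 1.5-fold, and Hk1, Pfkp, Pfkfb3, Pfkfb4, Gapdh, Eno1 and Ldhb were past it on the lower side. The share of all genes past it in thinned cells is not given here.

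**Figure D5:**
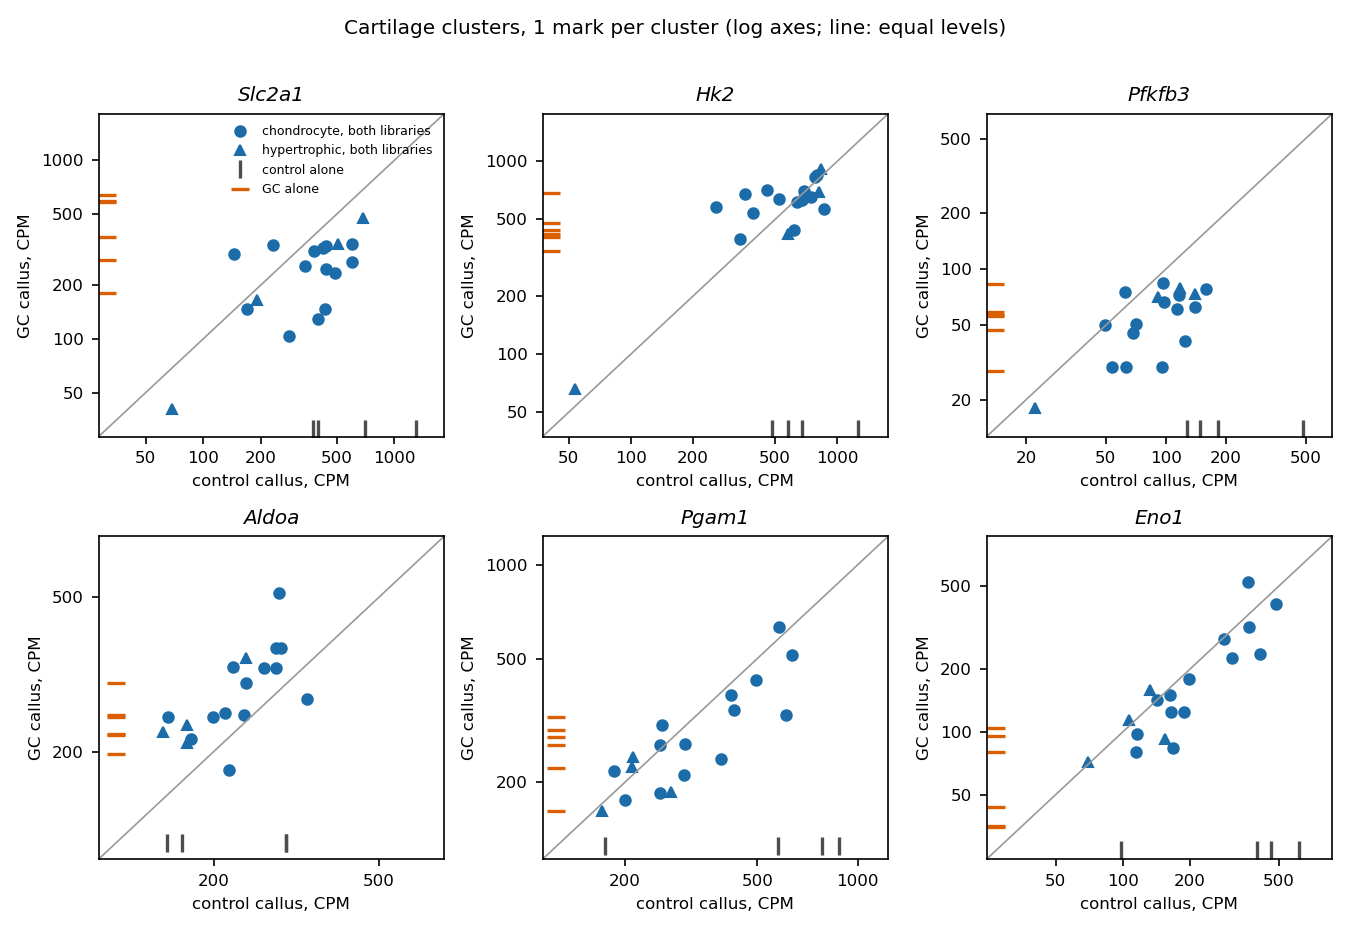
Level of 6 genes in each cartilage cluster, control CPM on the x axis and GC CPM on the y axis (both log), circles for chondrocyte and triangles for hypertrophic clusters, with clusters compared in only 1 library drawn as ticks at the edge. Most Slc2a1 and Pfkfb3 marks lie under the line of equal levels, most Aldoa marks lie above it, and a control cluster reaches 1302 CPM of Slc2a1.

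Bone-forming cells were read the same way within their 4 shared clusters. Slc2a1 and Pfkp were below 0 in 4 of 4 and past 1.5-fold in 3 and 4 of them, although Pfkp missed the mark in the pool at 69.8 and 48.5 CPM (0.695 [0.574–0.839]). Pfkfb3 was past the mark on the lower side in 3 of 4 clusters. Thinning to 1000 UMIs (268 control and 259 GC cells) ended the call of Slc2a1, at 112 and 104 CPM (log2 −0.10, 30 and 27 UMIs), and turned Pfkp to 63.4 and 69.5 CPM (0.12, 17 and 18 UMIs). In GC bone-forming cells the summed cartilage matrix genes were at 20900 CPM against 23724 CPM in control, and stress genes of tissue dissociation at 5452 against 7178 CPM. Their part in these ratios was not tested.

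Neutrophils were split by library as well. Callus cluster 1 held 1045 control and 30 GC cells, with Slc2a1 at 320.3 CPM in its control cells. In the other callus neutrophil clusters (633 control and 1342 GC cells), 5 of 21 measured members were lower (background 8.94% of 4328 genes), namely Slc2a1 (178 and 102 CPM, ratio 0.573 [0.463–0.711]), Pfkl (49 and 15.4 CPM), Pgam1 (313 and 172 CPM), Ldha (507 and 328 CPM) and Slc16a3 (397 and 183 CPM, 0.461 [0.397–0.536]). Hk1 (1.78 [1.41–2.26]) and Hk3 (1.69 [1.35–2.14]) were again higher (background 13.7%). Pfkp, Tpi1, Pgk1 and Eno1 did not pass 1.5-fold there, and Pdk1 had too few UMIs. Read in each callus cluster alone, Slc2a1 and Slc16a3 were past 1.5-fold on the lower side in 3 of 3 clusters and Pgam1 in 2 of 3. Ldha was below 0 in 3 of 3 but past 1.5-fold in 0, and Pfkl was measured in only 1. Hk1 was past 1.5-fold on the higher side in 2 of 3 clusters. Hk3 was past it in 1 of 3, with a median log2 ratio of 0.38 and a lowest of −0.05. Stress genes stood at 4836 CPM in control callus neutrophils and 2301 CPM in GC ones, and at 2606 and 1459 CPM in macrophages with monocytes. The part of these in the myeloid ratios was not tested.

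Trabecular neutrophils lay largely in clusters with over 95% of their cells from 1 library (clusters 0, 1, 3 and 5), which took 869 of 2507 control cells and 2413 of 3112 GC cells. In the 4 clusters held by both (1638 control and 699 GC cells), 0 of 23 members were higher (background 4.2% of 8113 genes) and 3 were lower (4.86%), namely Slc2a1 (37.8 and 22.5 CPM), Slc2a3 (239 and 144 CPM) and Slc16a3 (420.4 and 196 CPM). Pfkfb3, at 17.7 and 23.1 CPM, no longer passed 1.5-fold. The libraries fill these 4 clusters unequally, so each cluster was also read alone. In cluster 2 Slc2a1 stood at 70.9 and 74.3 CPM and Slc16a3 at 841 and 879 CPM, and in cluster 4 they stood at 22.7 and 20.4 CPM and at 171 and 155 CPM. Over 5 clusters Slc2a1 was below 0 in 1 and Slc16a3 in 4, neither past 1.5-fold in any, while Slc2a3 was below 0 in 5 and Gpi1 in 0. Pfkfb3 was past 1.5-fold on the higher side in 2 of the 5, at 29.7 and 86.3 CPM in cluster 1 (866 control and 27 GC cells) and at 18.3 and 44.6 CPM in cluster 2. Hk2 and Pfkp were each past it on the lower side in 2 of 5 and Slc2a3 in 1 of 5.

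Between tissues, control macrophages with monocytes of callus (macrophages and monocytes) were set against control monocytes of trabecular bone. Of 23 measured members, 10 were higher in callus (background 19.5% of 7002 genes) and 5 were lower (28.6%), and the median gene stood at −0.14. The higher members were led by Slc2a1 at 221 CPM in callus and 45.4 CPM in trabecular bone (4.86 [3.88–6.15]) and Pfkfb3 at 148 and 36 CPM (4.1 [3.17–5.37]). Ldha (597 and 227 CPM, 2.64 [2.37–2.94]), Pdk1 (2.4), Hk2 (2.3), Slc16a3 (2.14), Hk1 (2.02), Pfkl (1.76), Pgam1 (1.63) and Pfkp (1.58) followed. Lower in callus were Hk3 (0.383), Gapdh (706 and 1532 CPM, 0.461 [0.435–0.487]), Aldoa (0.52), Gpi1 (0.539) and Eno1 (0.658). Tissue, dissociation and library cannot be told apart here, and the trabecular class holds no macrophage cluster.

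Related gene lists were read by the same 1.5-fold rule, but only as levels pooled over a class. Readings in shared clusters, thinned or with outside RNA taken off are not given for them. Summed hypoxia genes stood at 4385 CPM in the cartilage clusters over 95% from control and at 2988 CPM in those over 95% from GC. In the remaining cartilage clusters they stood at 2715 CPM in control and 2440 CPM in GC. The part of this mixture in the counts below was not tested. Of 14 hypoxia genes, 6 were lower in all chondrocytes (Egln3, Ankrd37, Ero1l, Ndrg1, Adm and Car12) with 0 higher, where 2.1% and 2.16% of all genes were. In callus neutrophils 7 of 10 measured were lower and 0 higher (12.3% and 12.5% of genes), and in macrophages with monocytes 7 of 10 were lower and 1 higher (8.1% and 9.35%). Ero1l, an oxidase of protein folding, went from 196 to 80.9 CPM in chondrocytes, and Egln3, an oxygen-sensing hydroxylase, from 24 to 4.97 CPM there and from 185 to 32.3 CPM in neutrophils. Vegfa, the main vessel growth factor, was 642 and 229 CPM in macrophages with monocytes but 742 and 719 CPM in chondrocytes. P4ha1 was lower in 7 callus classes and Egln1 in 6. Epas1 went the other way, past the mark on the higher side in T cells and in the chondrocyte class alone. Ndrg1 was higher in 3 callus classes and lower in 1. Bone-forming cells had 2 of 13 lower and 2 higher (4.04% and 2.42% of genes), and osteoclasts 1 of 8 lower and 0 higher (5.22% and 5.24%). Trabecular neutrophils had 1 of 10 lower and 1 higher, Egln2 (1.4% and 3.4% of genes), and trabecular monocytes 2 of 8 lower and 0 higher (4.19% and 2.79%).

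Other branches of sugar metabolism are read against the same shares of all genes. Of 15 pentose phosphate and glycogen genes, 0 were higher and 1 was lower in chondrocytes (2.16% and 2.1% of genes). In callus neutrophils 3 of 10 measured were higher (G6pdx, Pgd and Pgm2, against 12.5% of genes). In callus macrophages with monocytes 1 of 12 was higher and 1 lower (9.35% and 8.1%). G6pdx, the entry enzyme of the pentose phosphate pathway, was past 1.5-fold on the higher side in dendritic cells, monocytes and neutrophils. Of 27 further glucose and pyruvate genes, 17 were measured in chondrocytes and 1 was lower (2.1% of genes). It was Bsg, the partner that carries monocarboxylate transporters to the membrane, at 899 and 551 CPM (0.612 [0.603–0.622]). Bsg was lower in 9 callus classes, including neutrophils (145 and 65.7 CPM), all read without outside RNA taken off. Of 5 gluconeogenesis genes, 0 of 3 measured passed 1.5-fold in chondrocytes. Among 10 glucocorticoid response genes, 2 were higher and 1 lower in chondrocytes (2.16% and 2.1% of genes). In trabecular bone 4 of 9 were higher and 0 lower in monocytes (2.79% and 4.19%), and 4 of 10 were higher and 1 lower (Cdkn1a) in neutrophils (3.4% and 1.4%). In callus neutrophils 2 of 9 were higher (Fkbp5 and Klf9, 12.5% of genes) and 3 lower (Per1, Dusp1 and Cdkn1a, 12.3%). The summed level of the list there was 4408 CPM in control and 2565 CPM in GC. In callus macrophages with monocytes 2 of 9 were higher (Fkbp5 and Txnip, 9.35%) and 2 lower (Per1 and Cdkn1a, 8.1%). Fkbp5, a receptor co-chaperone induced by glucocorticoids, stood at 13.2 and 72.5 CPM in trabecular neutrophils (5.48 [4.77–6.32]) and at 19.8 and 31.6 CPM in callus chondrocytes (1.59 [1.47–1.73]). With 5 CPM added, its ratio in chondrocytes fell short of 1.5-fold.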

How the data were processed

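Single-cell RNA-Seq was analysed from 4 libraries, 1 per tissue and condition. The authors deposited unnormalized UMI counts per gene and barcode, made with the droplet chemistry of 10x Genomics; per the labels Cell Ranger 5.0.1, Seurat 3.2.0 and mm10 were used, whereas the matrix headers name Cell Ranger 4.0.0. The GC callus matrix lists 7762 called barcodes. In the others, which list 6794880, cells were called here from the UMI cutoff and a Monte Carlo test of barcodes with at least 500 UMIs against empty droplets (10000 simulations, adjusted p 0.01). Cells under 200 genes, over 10% mitochondrial UMIs or scored as doublets were removed (405 control and 428 GC doublets in callus, 125 and 183 in trabecular bone), leaving medians per cell of 4213 and 3288 UMIs in callus and 6301 and 5624 UMIs in trabecular bone. Each tissue was clustered on 2000 variable genes without the members and the other lists, of which only the cartilage matrix, hemoglobin, skeletal muscle and cell cycle genes could enter (30 components, 15 neighbors, Leiden resolution 1), and 169 markers of 24 classes gave each cluster its name, by a rule settled after the clusters had been seen.

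Levels are CPM over the summed UMIs of a class with exact Poisson intervals, ratios have exact conditional intervals and shares exact binomial (Clopper-Pearson) intervals, all at 95%. UMIs of 3′ tags do not compare levels between genes. Shares within an isozyme family are shares of UMIs under the same limit, and a main form is the one with most of those UMIs. Log2 ratios added 5 CPM. All 31 members are named. Genes of the other lists are described mainly by counts. Not every list gene past 1.5-fold in at least 2 classes is named. A few list genes called in 1 class only were named after their values were seen. The members and lists were chosen with earlier results of these data known. The scripts were tested on simulated data. Alternatives covered pseudocount, minimum UMIs, fold, filters, depth, clustering, cluster weights and outside RNA, and 3 were added after the data were seen: leaving out clusters over 95% from 1 library, a background of genes over 20 CPM, and the outside-RNA correction in every class. Promoters came from RefSeq on GRCm38.p6 and transcripts from GENCODE M21. Python 3.11.15 was used with scipy 1.17.1, numpy 2.4.6, leidenalg 0.10.2, igraph 0.11.9, scikit-learn 1.9.0, matplotlib 3.10.9 and pandas 2.3.3.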

Additional observations from a re-analysis of the deposited data

Results flagged for a closer look

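Both of the following stand out because the libraries of the 2 tissues lay on opposite sides of control by more than 1.5-fold in a class of the same name. With 1 library per group the difference between tissues was not tested. Hk1 in macrophages with monocytes stood at a log2 ratio (GC to control) of 0.85 in callus and −0.65 in trabecular bone, where the class holds monocytes alone and Hk1 rested on 79 and 39 UMIs. The trabecular value fell short of 1.5-fold with 20 CPM added (−0.46), in cells of at least 1000 UMIs (−0.19), without doublet removal (−0.51), at resolution 2 (−0.18) and when thinned (−0.14), whereas the callus value stayed between 0.76 and 1.05 over its alternatives. Slc16a1, the monocarboxylate transporter of red cell precursors, had a log2 ratio of 0.87 in callus erythroid cells (63 control and 67 GC cells) and −0.78 in trabecular erythroid cells, where the median gene stood at −0.60. Of 21 members measured in the macrophage lineage of both tissues, 14 had opposite signs, where 52.7% of 5752 genes did. The like counts were 7 of 22 in neutrophils (50.2% of genes), 8 of 15 in T cells (48.8%) and 2 of 10 in erythroid cells (32.9%). Between cluster 53 of callus and trabecular granulocyte-monocyte progenitors the count was 9 of 13 (63.3%). B cells had 6 of 15 (45.4%), but their 16 trabecular GC cells are too few for a reading.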

How the results depend on the processing

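No paired analysis was possible because each group holds 1 library. Leaving out a replicate could not be run for the same reason. Of 1860 member values under the alternatives, 1594 stayed inside the counting interval of the reported value and 266 left it. Of 515 values of members past 1.5-fold, 0 were counted as reversed. Members short of the mark could change sign, as Pfkp did in bone-forming cells when thinned (log2 0.12). Counts of members past the mark moved as follows. The share of all genes past the mark under the same setting is not given beside them, so they are not read against a background. The exception is leaving out clusters over 95% from 1 library, where 2.03% of genes were lower in all chondrocytes. At 2-fold, lower members were 1 in all chondrocytes, 3 in callus macrophages with monocytes, 1 in bone-forming cells and 0 in trabecular monocytes, and higher members were 1 in callus macrophages with monocytes and 0 in bone-forming cells; callus over trabecular bone gave 5 higher and 2 lower. Weighting clusters equally gave 2 lower members in all chondrocytes and 6 in bone-forming cells, and leaving out clusters over 95% from 1 library gave 4 in all chondrocytes. Pdk4, the 1 higher member of bone-forming cells, was not past the mark (0 higher) with 20 CPM added, at 200 UMIs, with cells of at least 1000 UMIs or thinned to 1000 UMIs. When thinned, the 1 lower member of bone-forming cells was Eno1 (log2 −0.61), which was not among those reported. Slc2a1 then stood at −0.10, and Pfkfb3 (33 and 5 UMIs) and Ldhb (5 and 0 UMIs) fell under 50 UMIs. Callus macrophages with monocytes had 1 higher member at 200 UMIs and when thinned. When thinned, Gpi1 (−0.64) and Tpi1 (−0.66) were past the mark on the lower side there. Slc2a1, Pgam1 and Slc16a3 stayed past it, and Pfkl, Eno1 and Pdk1 did not. In trabecular monocytes the lower count was 0 with 20 CPM added, at 200 UMIs, in cells of at least 1000 UMIs, without doublet removal and when thinned, and 2 with no minimum; the higher count was 1 with 1 CPM added, at resolution 2 and when thinned. Thinning also gave 3 lower members for callus over trabecular bone and kept the highest class of 20 of 31 members. The cause was not tested, except that the fold, minimum and thinning settings ask for more or hold fewer UMIs. Slc2a1 kept its direction under the alternatives run in these 3 classes, with log2 ratios from −0.86 to −0.39 in chondrocytes, −1.30 to −0.87 in callus macrophages with monocytes and −1.45 to −0.10 in bone-forming cells; with outside RNA taken off it turned to 0.01 in callus macrophages and 0.29 in NK cells. The outside-RNA correction was not run in chondrocytes and bone-forming cells, nor equal weights between tissues.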
